A study of Arabidopsis thaliana with 6 samples.

Results

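The serine carboxypeptidase-like (SCPL) genes of Arabidopsis thaliana were followed in 2 kinds of phloem sample. A gene was a member where its current symbol is SCPL and a number and where a probe set of the Affymetrix ATH1 array was assigned to it alone. This gave 29 members, of 49 genes with such a symbol and of 13356 genes with a probe set of their own, and each member had 1 probe set. The 3 exudate samples held fluid that left cut phloem into a solution of EDTA, a chelator that keeps sieve tubes from sealing. The 3 LMPC samples held phloem tissue cut out by laser microdissection and pressure catapulting, a method that frees a small area of a section with a laser and lifts it into a tube. The labels name no treatment, mutation or accession for any group, and the plants of all groups were kept on 8 h of light daily up to flowering. RNA of the exudate went through repeated in vitro transcription, whereas that of LMPC phloem was also amplified by 10 cycles of PCR, so sample type and amplification cannot be told apart.

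SCPL proteins share the fold of serine carboxypeptidases, enzymes of the secretory pathway and the vacuole that take single amino acids off the carboxyl end of a peptide with a catalytic serine. A branch of the family, which holds most genes with the numbers 1 to 19, includes acyltransferases. These move an acyl group from a glucose ester to an acceptor and make sinapate esters such as sinapoylmalate, a sunscreen of the leaf. Among the other members, SCPL49 is the plant carboxypeptidase Y, a vacuolar enzyme, and SCPL48 is a close relative of it. BRS1, known also as SCPL24, was found as a suppressor of a brassinosteroid receptor mutant. For most of the remaining genes no substrate is known with certainty.

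The probe sets with a gene name here covered the acyltransferase branch poorly. Of 22746 probe sets, 8730 were unnamed here, so a gene listed as without one may still be on the array. Of the 18 genes numbered 1 to 19 under an SCPL symbol, 2 had a probe set of their own, SCPL16 and SCPL18. Of the 31 genes with a higher number, 27 had one. The 20 genes that were not members were SCPL1 to SCPL7, SCPL9 to SCPL15, SCPL17, SCPL19, SCPL36, SCPL37, SCPL39 and SCPL51. SCPL36, SCPL37 and SCPL39 appeared in probe sets shared with another gene. SNG1 (the gene of sinapoylglucose:malate sinapoyltransferase, SCPL8) and BRS1 go by other symbols and were not members. SNG1 was looked up by its locus and had no probe set named here, and BRS1 was not analysed. SNG1, SCPL10 and SCPL19, which are among the genes known for sinapate ester synthesis, are therefore absent from all values below.

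The deposited values are MAS5 signals on a linear scale, 1 for each probe set and array. Trimmed mean signals were between 17.4 and 27.3 on the exudate arrays and between 22.3 and 28.0 on the LMPC arrays. Over tested probe sets, Pearson's r between arrays was 0.859 to 0.878 within exudate, 0.841 to 0.847 within LMPC phloem and 0.500 to 0.536 between the groups. Nothing in the labels says that replicates were separate plants, and p-values measure the spread between these samples. In samples of many cells, fewer cells of a type and less RNA per cell cannot be told apart. Of 11 genes listed as markers of the phloem, not all of them of its companion cells or sieve elements, 3 had a probe set named here. The tissue label could therefore hardly be checked. Of these, CLE44 was called higher (limma, as explained below) and CLE41 and SWEET11 lower in exudate, under 9, 14 and 10 of 15 alternative settings, and the sum of the 3 was 112 to 179 in exudate and 210 to 444 in LMPC phloem. Of 5 photosynthesis genes of the mesophyll, 3 were measured and called higher in exudate (LHCB4.2 under all 15 alternatives, LHCB4.1 under 8 and RCA under 5), with a summed signal of 924 to 1805 on the exudate arrays and 183 to 745 on the LMPC arrays. For LHCB4.1 and RCA the groups overlapped, with exudate array 1 below LMPC array 1, and for LHCB4.2 they did not. The measured gene of 7 xylem genes, IRX10, was called lower (under 10 of 15 alternatives), with 16.0 to 33.5 in exudate and 64.9 to 80.6 in LMPC phloem. None of the 4 epidermis and guard cell genes was measured. No measured marker was listed at 0. The part of these cell types in the SCPL differences was not tested.

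Counted in each kind of sample on its own, most SCPL genes were dim, as were most probe sets of the array. The dim genes were in part different ones in exudate and LMPC phloem. The mean signal of a member was under 16 for 18 of the 29 in exudate (62.1%, against 65.2% of all probe sets) and for 17 of the 29 in LMPC phloem (58.6%, against 52.5%). Genes were tested if they exceeded the 40th percentile of the array on at least 3 of the 6 arrays, a level of 5.90 to 6.60 in exudate and 9.05 to 10.6 in LMPC phloem. This left 18 members (62.1%, against 67.5% of all probe sets). In exudate, 4 members were above the 75th percentile on all 3 arrays, SCPL26, SCPL35, SCPL48 and SCPL49, which is 13.8% of members against 16.5% of all probe sets. In LMPC phloem these were also 4 members, SCPL43, SCPL45, SCPL48 and SCPL49, or 13.8% against 15.8%. SCPL48 and SCPL49, the carboxypeptidase Y pair, were bright in both, and SCPL48 alone exceeded a signal of 100 on any array.

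**Figure D1:**
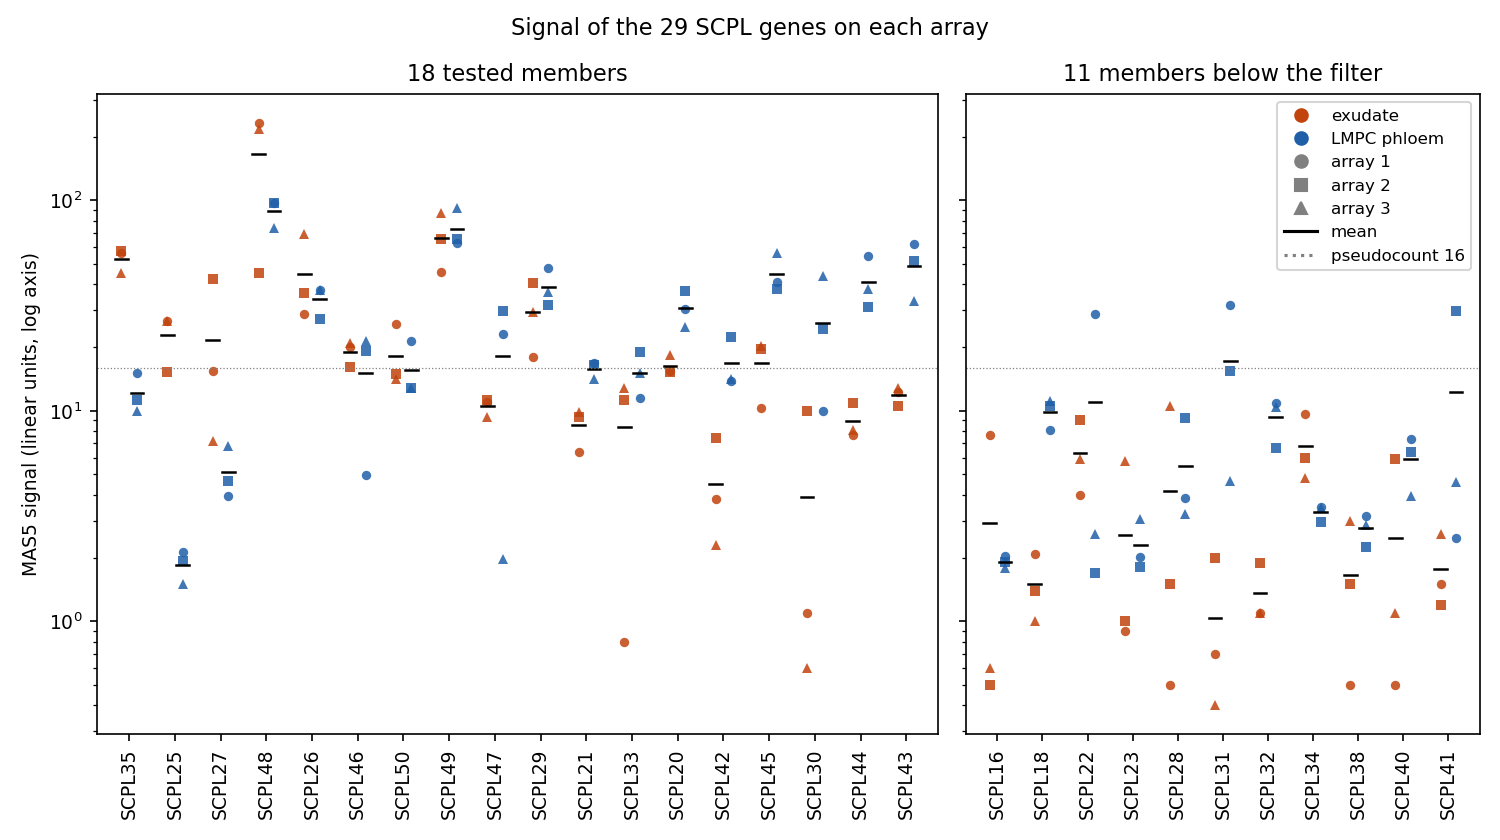
MAS5 signal of each of the 29 SCPL genes on the 3 exudate arrays (orange) and the 3 LMPC arrays (blue), on a log axis, with the mean of each group as a bar and the pseudocount of 16 as a dotted line. The 18 tested genes are ordered by their difference between the groups. SCPL35 lies between 45.1 and 57.2 in exudate and between 10.0 and 15.1 in LMPC phloem, and SCPL43 and SCPL44 lie the other way round.

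The comparison of exudate with LMPC phloem asked which SCPL transcripts were more abundant in the fluid and which in the tissue. SCPL35 and SCPL25 were higher in exudate, and SCPL30, SCPL43, SCPL44 and SCPL45 were lower. Differences are the exudate mean minus the LMPC mean of log2(signal + 16), a scale that understates changes of dim genes. They were tested with limma over all 15356 tested probe sets, and those with a Benjamini-Hochberg adjusted p under 0.05 are the called ones. Of the 18 tested members, 2 were called higher (11.1%, against 8.49% of all tested probe sets) and 4 lower (22.2%, against 16.6%), and with 18 genes both shares are near the background. The median difference of the tested members was -0.28, against -0.27 for all tested probe sets, and both turned positive when arrays were scaled to the hybridization spike-ins (0.52 and 0.42). The median and the shares of the family lay close to those of all probe sets, and its members went in both directions.

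SCPL35 (AT5G08260) had the largest positive difference of the 18 tested members. Its signal was 56.0, 57.2 and 45.1 on the exudate arrays and 15.1, 11.3 and 10.0 on the LMPC arrays, in the order of the replicate numbers as in all lists below. Every exudate array lay above every LMPC array, and the gene was above the 75th percentile on each exudate array and on no LMPC array. The means were 52.8 ± 6.67 and 12.1 ± 2.67 (SD over the 3 arrays of a group, n = 3, as everywhere below). The log2 difference was +1.29 (SE 0.30, limma adjusted p = 0.004). Because the median of all probe sets lay at -0.27 and moved to -0.01 under median centring, the difference relative to that median was +1.56. SCPL35 was called higher under all 15 alternative settings tried, with differences of 0.62 to 2.11, which made it the one member with no lost call.

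SCPL25 (AT3G02110) was likewise higher in exudate, at a lower signal. It reached 26.7, 15.3 and 26.6 in exudate, against 2.14, 1.93 and 1.51 in LMPC phloem. The groups did not overlap, and the LMPC values were among the dimmest of their arrays, with percentile ranks of 5.26 to 9.23. The means were 22.9 ± 6.55 and 1.86 ± 0.325, and the log2 difference was +1.11 (SE 0.30, limma adjusted p = 0.0118), or +1.38 relative to the median of all probe sets. The gene passed the filter on dim probe sets through the exudate arrays alone, so a difference was needed for it to be tested at all. Its call was lost without exudate array 1 (adjusted p = 0.0532).

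SCPL27 (AT3G07990) had the same order of groups but did not pass. Its exudate values were 15.5, 42.4 and 7.20 and its LMPC values 3.95, 4.62 and 6.82. The groups did not overlap by a narrow margin, with exudate array 2 far above the other two. The log2 difference was +0.73 (95% interval 0.00 to 1.45, limma adjusted p = 0.132). It was called after quantile normalization, after median centring, after spike-in scaling and without exudate array 3. Like SCPL25 it was tested through the exudate arrays alone.

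**Figure D2:**
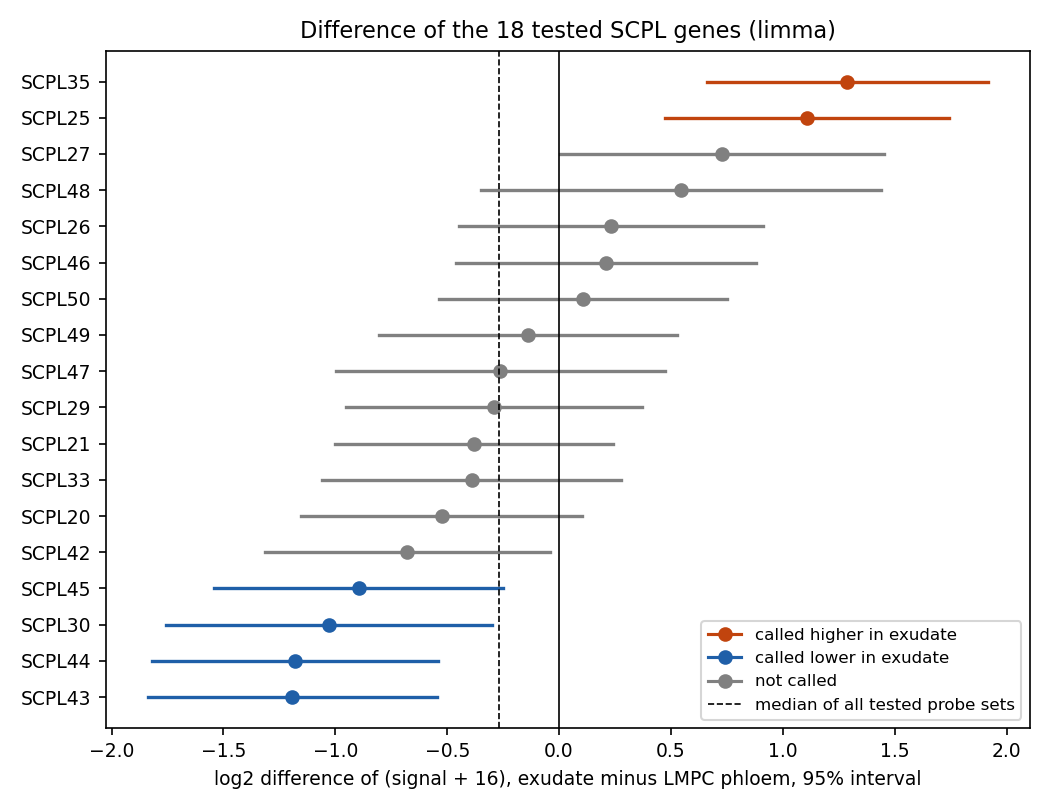
Log2 difference of (signal + 16), exudate minus LMPC phloem, for the 18 tested SCPL genes (points) with 95% intervals from limma (bars). Orange marks SCPL35 and SCPL25, called higher in exudate, blue marks SCPL45, SCPL30, SCPL44 and SCPL43, called lower, and the dashed line is the median of all tested probe sets at -0.27.

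SCPL43 and SCPL44 were lower in exudate by nearly the same amount, and neither has a substrate named here. The SCPL43 (AT2G12480) signal was 12.3, 10.5 and 12.8 in exudate and 61.8, 51.4 and 33.1 in LMPC phloem. For SCPL44 (AT1G43780) the values were 7.70, 10.9 and 8.10 in exudate and 54.1, 31.2 and 37.9 in LMPC phloem. In both genes every LMPC array lay above every exudate array, and the exudate values were tight. Group means were 11.9 ± 1.21 against 48.8 ± 14.6 for SCPL43, and 8.90 ± 1.74 against 41.1 ± 11.7 for SCPL44. The log2 differences were -1.19 (SE 0.31, limma adjusted p = 0.00832) and -1.18 (SE 0.31, limma adjusted p = 0.00839). Relative to the median of all probe sets they were -0.92 and -0.91. Both were called under 14 of the 15 alternatives and lost their calls after spike-in scaling (-0.37 and -0.42, adjusted p = 0.412 and 0.369).

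SCPL45 (AT1G28110) and SCPL30 (AT4G15100) were also called lower, with less support. SCPL45 had 10.3, 19.7 and 20.4 in exudate and 40.7, 37.8 and 56.1 in LMPC phloem, without overlap. Its log2 difference was -0.90 (SE 0.31, limma adjusted p = 0.0401), and it was called under 5 of 15 alternatives. Leaving out any LMPC array, or exudate array 1 or 2, lost the call (adjusted p up to 0.152). Quantile normalization, median centring, spike-in scaling, a block for the replicate number and a pseudocount of 1 lost it too (adjusted p up to 0.942). SCPL30 had 1.10, 10.0 and 0.600 in exudate against 9.94, 24.5 and 43.7 in LMPC phloem, and the highest exudate value lay just above the lowest LMPC value. Its log2 difference was -1.03 (SE 0.35, limma adjusted p = 0.0369), and it was called under 5 of 14 alternatives. Leaving out exudate array 1, exudate array 3, LMPC array 2 or LMPC array 3 ended the call (adjusted p up to 0.17). So did quantile normalization, median centring, spike-in scaling (adjusted p = 0.365), a pseudocount of 64 and dropping the filter.

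**Figure D3:**
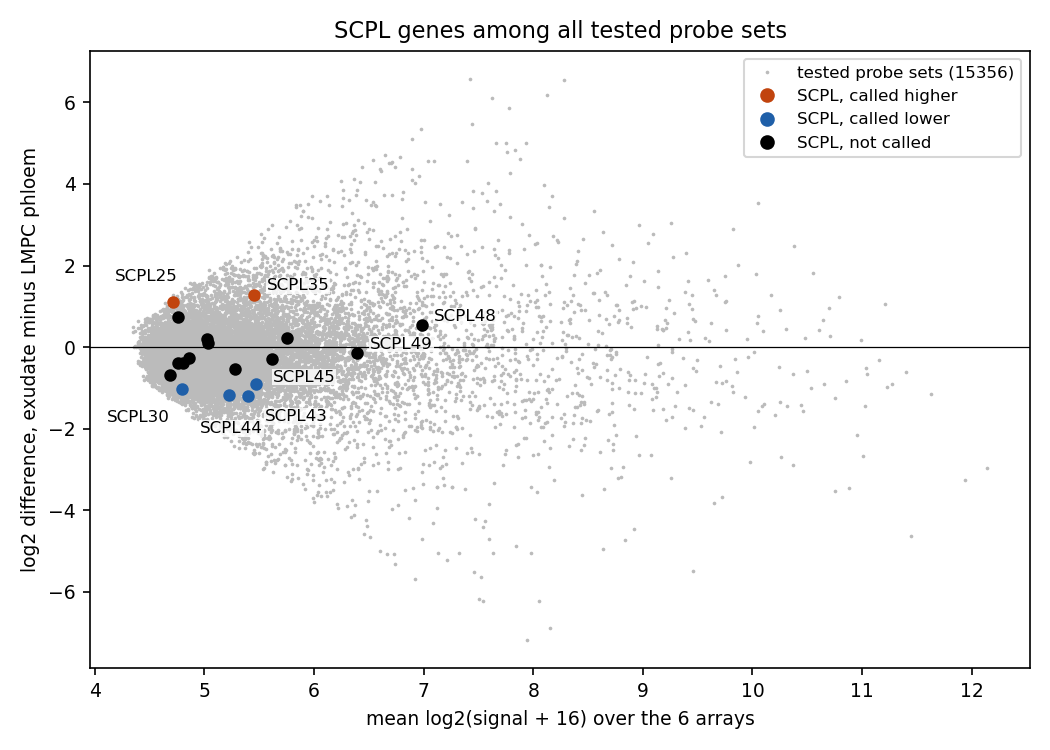
Mean log2(signal + 16) over the 6 arrays against the log2 difference, exudate minus LMPC phloem, for all 15356 tested probe sets (grey) and the 18 tested SCPL genes (coloured by call). The differences of the SCPL genes run from -1.19 to 1.29, inside the cloud of all probe sets, and SCPL48 and SCPL49 lie farthest to the right of them.

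The carboxypeptidase Y pair was bright in both sample types and was not called for the values as deposited. SCPL49 (AT3G10410) had 45.5, 65.6 and 86.8 in exudate and 62.6, 65.4 and 91.5 in LMPC phloem. The ranges overlapped in part, with exudate array 1 below every LMPC array, and the log2 difference was -0.14 with a 95% interval of -0.80 to 0.53 (limma adjusted p = 0.782). This interval leaves room for a moderate change either way, and the sign of the difference turned after median centring (0.28) and spike-in scaling (0.95, called with an adjusted p = 0.0414). SCPL48 (AT3G45010) had 233.6, 44.9 and 218.3 in exudate and 96.8, 97.0 and 73.5 in LMPC phloem. On exudate arrays 1 and 3 it was above every LMPC array, and on exudate array 2 it was below them all. Its log2 difference was +0.55 (95% interval -0.35 to 1.44, limma adjusted p = 0.366). Without exudate array 2 the difference was +1.21 and was called (adjusted p = 0.02). It was also called with all arrays after spike-in scaling (+1.69, adjusted p = 0.00119).

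Among the exudate arrays, array 2 held the lowest value of 7 of the 29 members and the highest value of 11. SCPL48, SCPL25 (15.3) and SCPL43 (10.5) were lowest there, and SCPL27 (42.4), SCPL29 (40.6) and SCPL35 (57.2) were highest. The origin of the low value of SCPL48 was not tested.

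A further 4 tested members whose groups did or nearly did separate were lower in exudate in value but missed the threshold. SCPL20 (AT4G12910) had 15.4, 15.3 and 18.4 in exudate and 30.4, 36.9 and 25.0 in LMPC phloem, with a log2 difference of -0.53 (limma adjusted p = 0.21). SCPL21 (AT3G25420) had 6.4, 9.30 and 9.90 against 16.9, 16.5 and 14.2, with -0.38 (adjusted p = 0.368). SCPL42 (AT5G42240) had 3.80, 7.40 and 2.30 against 13.8, 22.5 and 14.2, with -0.68 (adjusted p = 0.11). In these 3 genes every LMPC array lay above every exudate array. SCPL33 (AT3G17180) had 0.800, 11.3 and 12.9 against 11.5, 19 and 15.1, overlapping through exudate array 3, with -0.39 (adjusted p = 0.389). With spike-in scaling SCPL20, SCPL21 and SCPL33 turned to small positive differences.

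Counting all tested members by overlap alone, 3 had every exudate array above every LMPC array (16.7%, against 12.1% of tested probe sets) and 6 had the reverse (33.3%, against 27.7%). The first were SCPL25, SCPL27 and SCPL35, the second SCPL20, SCPL21, SCPL42, SCPL43, SCPL44 and SCPL45. The remaining 9 overlapped. SCPL26 (AT2G35780) had 28.9 to 69.3 in exudate and 27.4 to 37.4 in LMPC phloem, with exudate array 3 above every LMPC array. SCPL29 (AT4G30810) had 18 to 40.6 and 31.8 to 47.9, with exudate arrays 1 and 3 below every LMPC array. Their log2 differences were +0.23 (95% interval -0.45 to 0.91) and -0.29 (95% interval -0.95 to 0.37). After spike-in scaling SCPL26 was called higher (+1.17, limma adjusted p = 0.0093). SCPL50 (AT1G15000) had 14.1 to 25.7 in exudate and 12.8 to 21.4 in LMPC phloem, a difference of +0.11 (95% interval -0.54 to 0.75).

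In SCPL46 and SCPL47, 1 LMPC array stood apart. SCPL46 (AT2G33530) had 20, 16.2 and 20.9 in exudate and 4.94, 19.2 and 21.5 in LMPC phloem, so LMPC array 1 alone was low. SCPL47 (AT5G22980) had 11, 11.3 and 9.30 in exudate and 23.2, 29.6 and 1.98 in LMPC phloem, with array 3 alone low. Without LMPC array 3, SCPL47 differed by -0.67 (limma adjusted p = 0.166) in place of -0.26 (0.618), and without LMPC array 1 SCPL46 differed by -0.05 in place of +0.21. Neither was called in any of these fits, but SCPL46 was called higher after spike-in scaling (+0.87, limma adjusted p = 0.0493).

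The 11 members below the filter were SCPL16, SCPL18, SCPL22, SCPL23, SCPL28, SCPL31, SCPL32, SCPL34, SCPL38, SCPL40 and SCPL41, with signals of 0.40 to 32.0. Both members of the acyltransferase number range were among them. SCPL18 (AT1G33540) had 2.10, 1.40 and 1.00 in exudate and 8.14, 10.5 and 11.1 in LMPC phloem, and SCPL16 (AT3G12220) had 7.70, 0.500 and 0.600 against 2.04, 1.92 and 1.79. The LMPC arrays lay above the exudate arrays for SCPL18, SCPL31 and SCPL32, and below them for SCPL34. Of all 29 members, this made 9 with LMPC phloem above and 4 with exudate above, where 26.5% and 8.74% of all probe sets had these orders. With 29 genes these counts are near those shares and are not read as a trait of the family. When the filter was dropped, 4.27% of all probe sets, bright ones included, were called higher and 9.9% lower. The 11 members were dim by the filter, and the scale understates changes of dim genes. These shares are therefore not a like background for them. Of the 11, limma called 0, and 3 were lower at an unadjusted p under 0.05. SCPL18 came nearest (-0.56, limma adjusted p = 0.0646).

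Several of these dim genes had their highest value on a single array. SCPL22 (AT2G24000) had 28.9 on LMPC array 1 and 1.70 and 2.59 on the other two. SCPL41 (AT5G42230) had 29.8 on LMPC array 2 and 2.50 and 4.60 on the others. SCPL31 (AT1G11080) ran from 4.65 on LMPC array 3 through 15.4 to 32.0 on LMPC array 1, with 0.40 to 2 in exudate. SCPL22 and SCPL31 were thus highest on LMPC array 1, and SCPL41 on LMPC array 2.

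By the gene order of assembly TAIR10.1, 2 pairs of direct neighbours had both genes among the members. SCPL26 was above the 40th percentile on all 6 arrays, while SCPL28 beside it had 0.50 to 10.5 and was below the filter. SCPL22 and SCPL23 (AT2G24010, 0.90 to 5.80) were both below it. Of the longer runs of neighbouring family genes, SCPL2 to SCPL6 had no member, nor had SCPL9, SCPL10, SCPL11 and SCPL13 with SNG1. The run of SCPL36, SCPL37 and SCPL39 had none either. The run of SCPL14 to SCPL17, with 1 other coding gene between SCPL17 and SCPL16, held the member SCPL16.

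No scaling target was given, and the trimmed mean signals differed between arrays. The ratio of 2 genes on the same array was therefore taken as a value that no scaling of the array can move. The size of such a ratio depends on the probes, so only its change between arrays is read. The pairs were chosen after the values were seen, with genes of opposite direction, which fixes the order of the groups. The values describe these pairs and test nothing. The ratio of SCPL35 to SCPL43 was 4.55, 5.45 and 3.52 on the exudate arrays and 0.245, 0.219 and 0.302 on the LMPC arrays, a 17.5-fold change of the geometric mean. SCPL35 to SCPL44 gave 7.27, 5.25 and 5.57 against 0.28, 0.36 and 0.264, a 20-fold change. SCPL35 to SCPL45 changed 12.1-fold.

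Pairs of the same direction were set beside these. SCPL43 to SCPL44 was 1.6, 0.963 and 1.58 in exudate and 1.14, 1.65 and 0.873 in LMPC phloem, with overlap and a 1.14-fold change. The ratios of SCPL43 and SCPL44 to SCPL45 were 1.45-fold and 1.65-fold higher in LMPC phloem, both with overlap. SCPL25 to SCPL27, both higher in value in exudate, was 1.72, 0.361 and 3.69 against 0.544, 0.417 and 0.221, a 3.58-fold change, also with overlap. For the carboxypeptidase Y relatives, whose differences had opposite signs as deposited, the ratio of SCPL48 to SCPL49 was 5.13, 0.684 and 2.51 against 1.55, 1.48 and 0.803, and its exudate values spanned the LMPC values. With this spread the data do not separate the carboxypeptidase Y relatives from each other.

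**Figure D4:**
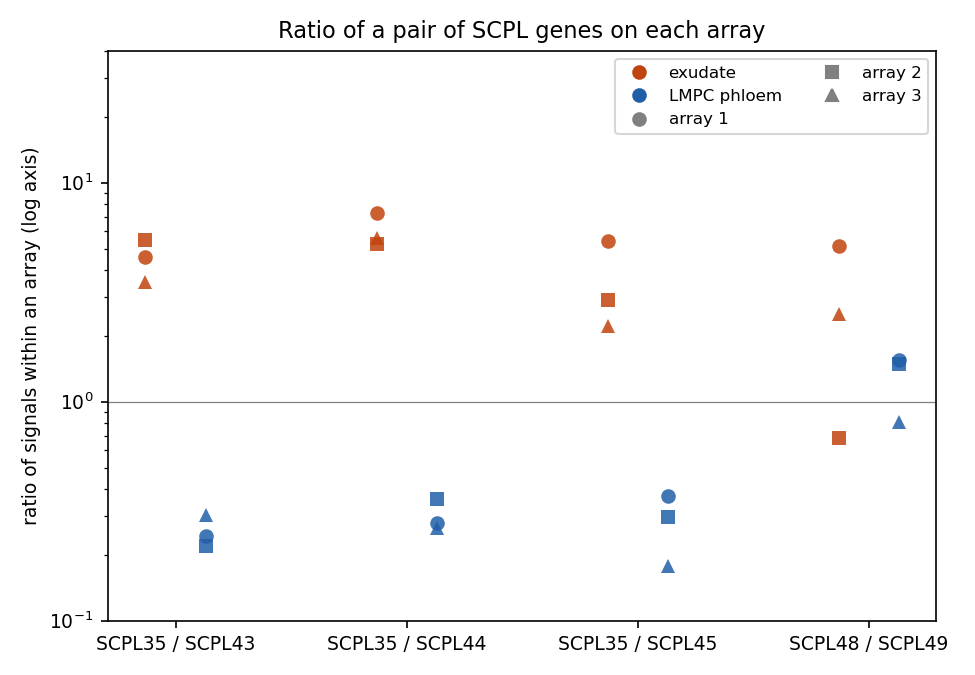
Ratio of the signals of a pair of SCPL genes on each array, on a log axis, with exudate in orange and LMPC phloem in blue. The ratios of SCPL35 to SCPL43, SCPL44 and SCPL45 are above 1 on all exudate arrays and below 1 on all LMPC arrays, while those of SCPL48 to SCPL49 overlap.

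Across the alternative settings, SCPL35 was called higher in every setting, SCPL25 in 14 of 15 alternatives, and SCPL43 and SCPL44 were called lower in 14 of 15. Scaling to the hybridization spike-ins, whose geometric mean signal was 350 to 702 on the exudate arrays and 1051 to 1568 on the LMPC arrays, shifted all genes towards exudate. It gave 7 members called higher and 0 lower, against 28.3% and 3.67% of all tested probe sets, and 0 members were lower at an unadjusted limma p under 0.05. The 7 called higher with this scaling were SCPL25, SCPL26, SCPL27, SCPL35, SCPL46, SCPL48 and SCPL49. A negative sign was left there for SCPL30 (-0.49), SCPL44 (-0.42), SCPL43 (-0.37), SCPL42 (-0.15) and SCPL45, which went from -0.90 to -0.04. Quantile normalization and median centring each gave 3 higher (with SCPL27) and 2 lower (SCPL43 and SCPL44). All probe sets were then called higher in 13% and lower in 12.1% of cases after quantile normalization, and in 14.6% and 10.1% after median centring.

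**Figure D5:**
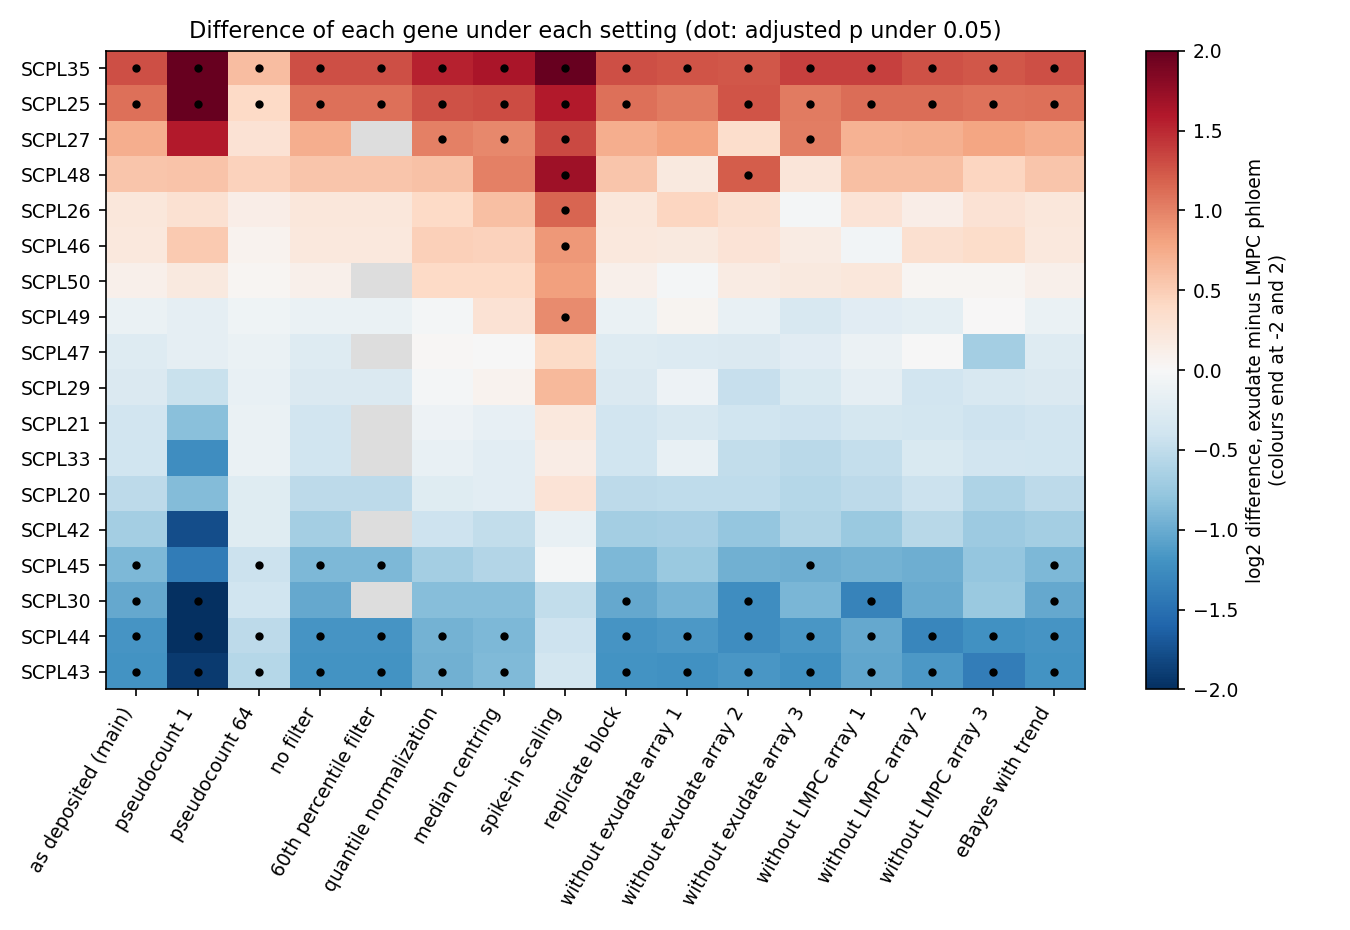
Log2 difference, exudate minus LMPC phloem, of the 18 tested SCPL genes under the values as deposited and 15 alternative settings, with red for higher and blue for lower in exudate, a dot for an adjusted p under 0.05 and grey where a gene was not tested. SCPL35 carries a dot in every column, and SCPL43 and SCPL44 in all but the spike-in column.

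Genes of the pathways around the family were measured in part. Over all tested probe sets 8.49% were called higher and 16.6% lower, and each list held too few tested genes to compare with these shares. Of 18 genes of phenylpropanoid and sinapate ester synthesis, 2 were tested, and limma called 1 higher and 0 lower in exudate, with the same counts at an unadjusted p under 0.05. The higher one was REF1 (AT3G24503), an aldehyde dehydrogenase that makes ferulate and sinapate, with 133.9, 69.7 and 205.4 in exudate and 57.7, 40.5 and 26.1 in LMPC phloem. Its log2 difference was +1.34 (limma adjusted p = 0.0111), and the call ended with a pseudocount of 1, with no filter and when exudate array 1, exudate array 3 or LMPC array 3 was left out. HCT, an acyltransferase of lignin synthesis, differed by -0.53 (adjusted p = 0.329). Of the 6 UGT84 genes, glucosyltransferases that make glucose esters of the kind used by SCPL acyltransferases, 5 had a probe set, 2 were tested and 0 were called, with UGT84A3 at +0.40 (adjusted p = 0.421) and UGT84A4 at +0.14 (0.792), and 0 passed an unadjusted limma p under 0.05.

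Among 18 vacuolar proteases and sorting receptors, the setting of SCPL49, 5 were tested, with 2 higher and 1 lower in exudate. All tested probe sets had 8.49% higher and 16.6% lower, and 5 genes are too few to read a difference from these shares. APA1 (AT1G11910), an aspartic protease, had 538.1, 321.7 and 489.1 in exudate and 190.9, 266.9 and 144.3 in LMPC phloem, a log2 difference of +1.11 (limma adjusted p = 0.019). GAMMA-VPE (AT4G32940), a vacuolar processing enzyme, was higher by +1.10 (adjusted p = 0.047), and BETA-VPE (AT1G62710), of the same family, was different by -1.0 (0.0255, called lower). All 3 calls were fragile, since APA1 kept its call under 10 of 15 alternatives, GAMMA-VPE under 6 and BETA-VPE under 7. Leaving out exudate array 1, LMPC array 1 or LMPC array 3 ended that of APA1, any array but LMPC array 1 that of GAMMA-VPE, and any array but array 1 of either group that of BETA-VPE. No sorting receptor was measured. Of 13 brassinosteroid signalling genes, BRL1, a receptor kinase, was the 1 tested, with -0.61 (adjusted p = 0.162).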

How the data were processed

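Poly-A RNA of 3 exudate and 3 LMPC phloem samples was hybridized to Affymetrix ATH1 arrays, grouped by sample title. The authors deposited intensity values on a linear scale, made with MAS5 per the submitters' processing notes. Version, scaling target, detection calls and build were not given in the sources used here. Per the labels, the extract protocol of the LMPC samples names exudate, against their titles, which were followed.

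Of 22746 probe sets that were no controls, 13513 had 1 gene, 503 several and 8730 were unnamed here. Symbols were updated through gene identifiers to RefSeq (TAIR10.1), which 13436 single-gene probe sets matched. A gene was measured by its brightest probe set over the 6 arrays. limma 3.58.1 in R 4.3.3 (lmFit, eBayes) was run on log2(signal + 16) without covariates for 15356 probe sets, with Benjamini-Hochberg adjustment over all of them. Every called member, every tested member without overlap between groups and members with a known role are given in full. The members and lists were chosen with earlier results of these data known. Correlations of same-numbered deviations were -0.074 to -0.0043, and the main fit was unpaired. Such correlations cannot show whether samples of the same number shared plants or a batch. Alternatives were other pseudocounts, filters and scalings, the block, limma with a trend and leaving out each array. Grouping members by protein sequence was not done. The 3 arrays per group limit the precision.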

Additional observations from a re-analysis of the deposited data

How the results depend on the processing

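Of 263 values of the 18 tested members under the alternatives, 219 kept direction and side of the threshold, 22 lost a call, 8 gained one and 14 turned sign. Over all probe sets, 1303 were higher and 2552 lower as deposited (33.8% of calls higher), 1995 and 1858 after quantile normalization (51.8%), 2247 and 1550 after median centring (59.2%) and 4348 and 564 after spike-in scaling (88.5%). Leaving out 1 array gave 905 to 1214 higher and 1521 (without exudate array 1) to 2469 lower, with 1671 lower without LMPC array 1. Members called higher went from 2 to 7 after spike-in scaling and were 1 to 3 with an array left out, the 1 being without exudate array 1. Members called lower went from 4 to 2 after quantile normalization and median centring and to 0 after spike-in scaling (0 at an unadjusted limma p under 0.05), and were 2 to 3 with an array left out (2 without exudate array 1, LMPC array 2 or LMPC array 3). The median difference of the members was -0.13 with a pseudocount of 64, -0.14 under the 60th percentile filter (11 members), -0.045 after quantile normalization, 0.028 after median centring and 0.52 after spike-in scaling, and -0.35 to -0.12 with an array left out. Signs turned, all without a call except as stated, after spike-in scaling for SCPL20 (0.28), SCPL21 (0.21), SCPL29 (0.64), SCPL33 (0.15), SCPL47 (0.39) and SCPL49 (0.95, called), after median centring for SCPL29 (0.065) and SCPL49 (0.28), after quantile normalization for SCPL47 (0.027), and with an array left out, in at least 1 case each, for SCPL26 (-0.041 to 0.42), SCPL46 (-0.054 to 0.37), SCPL49 (-0.32 to 0.053) and SCPL50 (-0.042 to 0.23). With the replicate block, 1213 probe sets were higher and 2205 lower, and 2 members were higher and 3 lower, SCPL45 losing its call. Spike-in, median and quantile scaling change the array factors by construction, and other causes were not tested. Every member had 1 probe set, so averaging probe sets changed nothing. Signals under about 16 in most members, counted in each kind of sample on its own, limit what can be seen.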
